A study of Mus musculus with 44 samples.

Results

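The 4 Hox clusters of the mouse were examined for 3 features of Polycomb chromatin: the protein PCGF1, the protein RING1B and the histone mark H3K27me3. The members were chosen by position, as every listed peak that shares at least 1 bp with a window around a cluster in build mm9. The windows were chromosome 6, 52080000 to 52300000 (HoxA, 220 kb), chromosome 11, 96030000 to 96250000 (HoxB, 220 kb), chromosome 15, 102740000 to 102990000 (HoxC, 250 kb), and chromosome 2, 74480000 to 74630000 (HoxD, 150 kb). Of the 162947 peaks in the 3 lists, 104 lay in these windows. PCGF1 had 5 members among 2569 listed peaks, RING1B 72 among 24987 and H3K27me3 27 among 135391 regions. The study's labels describe 44 chromatin libraries in 23 groups, and 6 of these libraries lie behind the lists, 2 for each. All 6 came from IdHP cells, haematopoietic progenitors of bone marrow origin and strain B6CBAF1/J, kept on a TSt4 stroma layer in medium with the factors IL7, SCF and Fl3L, at passages 15 to 18. The labels do not say whether the 2 libraries of a list came from separate cultures. RING1B and H3K27me3 were precipitated from Pcgf1 fl/fl cells, in which the Pcgf1 gene carries loxP sites. PCGF1 was precipitated through its FLAG tag from Pcgf1 -/- cells that had been given FLAG-PCGF1, so its list describes a returned, tagged protein in another cell population. Its promoter is not given in the sources used here. Each list is named for both of its libraries and gives 1 value per peak, with none per library. No value therefore has a replicate error, and no test over libraries could be made. Read depth is unknown from the lists.

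Hox genes encode homeodomain transcription factors that give cells a position along the body axis, and several members of HoxA and HoxB, among them Hoxa9, Hoxa10 and Hoxb4, are known regulators of blood stem and progenitor cells. The genes are numbered by paralogue group, and their order along the chromosome follows the order in which they are used along the body, with group 13 the most posterior. The clusters are textbook targets of the Polycomb system: Polycomb repressive complex 2 writes H3K27me3, and Polycomb repressive complex 1, through its ubiquitin ligase subunit RING1B, marks histone H2A. PCGF1 defines a variant of complex 1 that also holds KDM2B, a protein with a zinc finger that recognises unmethylated CG pairs.

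The 38 named members are Hoxa2, Hoxa3, Hoxa4, Hoxa5, Hoxa6, Hoxa7, Hoxa9, Hoxa10, Hoxa11 and Hoxa13 in HoxA, Hoxb1 to Hoxb9 and Hoxb13 in HoxB, Hoxc4, Hoxc5, Hoxc6, Hoxc8, Hoxc9, Hoxc10, Hoxc11, Hoxc12 and Hoxc13 in HoxC, and Hoxd1, Hoxd3, Hoxd4, Hoxd8, Hoxd9, Hoxd10, Hoxd11, Hoxd12 and Hoxd13 in HoxD. The gene table used here belongs to build GRCm38.p6 and not to mm9, so no peak was placed on a gene, and the table was used for gene order alone. In it the group 13 gene lies at the high-coordinate end of HoxA and at the low-coordinate end of HoxB, HoxC and HoxD. The genes between the members include microRNA genes in each cluster: Mir196b in HoxA, Mir196a-1 and Mir10a in HoxB, Mir196a-2 and Mir615 in HoxC, and Mir10b in HoxD.

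Because the PCGF1 complex is known for its link to CG-rich DNA, the 250 bases before the start of the member genes were read from RefSeq promoters (GRCm38.p6). Of the 38 members 22 had an entry, with 24 promoters in all. The median Hox promoter held 12.5 CG pairs (range 2 to 35), against a median of 6 (quartiles 2 and 16) over all 32851 promoters of the table. At least 20 CG pairs were found in 8 of the 24, against 17.9% of all promoters (5896). The medians were 15.5 in HoxA (10 promoters, 3 to 35), 12 in HoxB (3 promoters, 7 to 14) and 12.5 in HoxD (10 promoters, 2 to 31), and the single HoxC promoter held 8. These ranges overlap, and HoxB and HoxC had too few entries for the clusters to be compared. No entry was matched for Hoxa4, Hoxb2, Hoxb3, Hoxb5, Hoxb6, Hoxb7, Hoxb9, Hoxb13, Hoxc5, Hoxc6, Hoxc8, Hoxc9, Hoxc10, Hoxc11, Hoxc12 and Hoxc13. The promoter with the most CG pairs in each cluster, and the one with the fewest among all 24, an upstream start of Hoxd11, show this range. They are given 5′ to 3′ on the gene's own strand, with every CG pair in capitals, and their GRCm38.p6 positions cannot be set against the mm9 positions of the peaks.

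Hoxa13, GRCm38.p6 chr6:52260881-52261130, minus strand, 35 CG pairs: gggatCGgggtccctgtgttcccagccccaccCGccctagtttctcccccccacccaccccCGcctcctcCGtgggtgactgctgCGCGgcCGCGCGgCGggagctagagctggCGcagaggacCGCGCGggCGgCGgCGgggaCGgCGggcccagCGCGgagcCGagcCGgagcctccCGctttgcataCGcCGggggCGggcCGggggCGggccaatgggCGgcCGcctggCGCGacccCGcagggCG
Hoxb4, GRCm38.p6 chr11:96318017-96318266, plus strand, 14 CG pairs: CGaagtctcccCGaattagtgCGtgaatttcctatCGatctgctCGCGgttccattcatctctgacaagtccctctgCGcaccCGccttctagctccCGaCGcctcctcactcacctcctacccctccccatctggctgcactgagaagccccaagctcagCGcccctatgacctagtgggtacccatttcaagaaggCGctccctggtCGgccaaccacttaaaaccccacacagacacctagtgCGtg
Hoxc4, GRCm38.p6 chr15:103034145-103034394, plus strand, 8 CG pairs: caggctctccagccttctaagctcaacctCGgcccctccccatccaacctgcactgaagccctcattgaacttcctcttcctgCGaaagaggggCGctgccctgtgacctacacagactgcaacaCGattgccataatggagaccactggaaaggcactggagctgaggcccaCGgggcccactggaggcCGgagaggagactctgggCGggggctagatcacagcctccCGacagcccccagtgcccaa
Hoxd13, GRCm38.p6 chr2:74667975-74668224, plus strand, 31 CG pairs: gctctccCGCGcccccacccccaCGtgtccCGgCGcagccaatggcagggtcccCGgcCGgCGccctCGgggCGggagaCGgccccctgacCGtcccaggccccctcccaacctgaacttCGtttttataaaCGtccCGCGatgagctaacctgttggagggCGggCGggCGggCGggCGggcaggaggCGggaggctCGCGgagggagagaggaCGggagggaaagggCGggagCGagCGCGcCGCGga
Hoxd11, GRCm38.p6 chr2:74679308-74679557, plus strand, 2 CG pairs: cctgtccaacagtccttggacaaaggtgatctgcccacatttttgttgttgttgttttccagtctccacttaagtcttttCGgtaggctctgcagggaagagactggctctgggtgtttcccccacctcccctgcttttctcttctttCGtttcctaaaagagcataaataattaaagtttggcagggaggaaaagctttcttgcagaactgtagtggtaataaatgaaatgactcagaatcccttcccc

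Along the plot of CG pairs, the 10 HoxA and the 10 HoxD promoters spread over nearly the same range, from CG-poor (Hoxa9 with 3 pairs, Hoxd4 with 3) to CG-rich (Hoxa5 with 28, Hoxa6 with 24, Hoxd1 with 24).

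**Figure D1:**
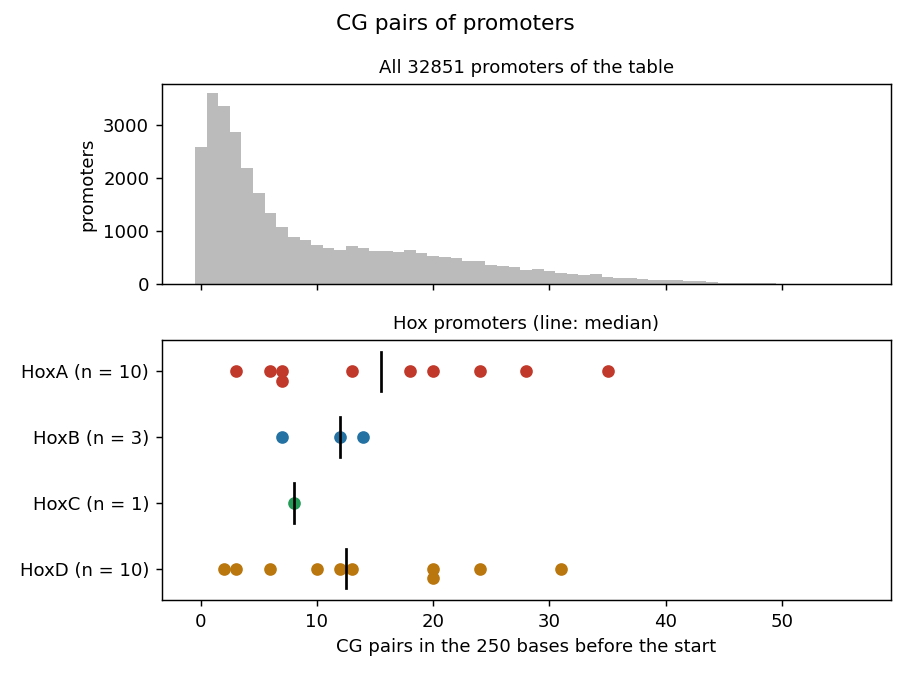
Number of CG pairs in the 250 bases before the start, for all 32851 promoters of the table (upper panel, number of promoters) and for the 24 Hox promoters (lower panel, 1 point per promoter, line at the median of each cluster). The medians are 15.5 in HoxA, 12 in HoxB and 12.5 in HoxD, with 1 promoter in HoxC.

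H3K27me3 covered most of all 4 windows. The covered share, the bases of a window under a listed region, was 95.9% in HoxB, 95.5% in HoxC, 92.4% in HoxD and 77.3% in HoxA. HoxB and HoxC thus lay within 1 point of each other, and HoxA was 18.6 points under HoxB. The order of the upper 3 depended on the borders: with windows narrowed by 20 kb on both sides it was 100% in HoxC, 96.8% in HoxD and 95.0% in HoxB, with HoxA still lowest at 80.4%. Over the chromosomes as a whole the list covered 18.2% of the bases. The chromosomes were also cut into 13196 adjoining tiles of 200 kb, whose median H3K27me3 share was 10.8%. The share of HoxB was reached by 3 tiles and that of HoxC by 3, that of HoxD by 9 and that of HoxA by 125. The tiles include the Hox clusters themselves, cut at other borders, and the windows differ from them in length, so these ranks are a description.

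HoxC lay under the fewest H3K27me3 regions, while HoxA and, for its length, HoxD were more broken up. There were 2 regions in HoxC, 6 in HoxB, 7 in HoxD and 12 in HoxA, or 0.8, 2.73, 4.67 and 5.45 per 100 kb. The main HoxC region, chromosome 15, 102746200 to 102980960, was 234760 bp wide. It was the second widest of the 135391 regions, and its 134500 bp above the caller's cutoff were the most of any region in the list. The main HoxA region, 52157530 to 52291840, was 134310 bp wide (11th of the list), the main HoxD region, 74490780 to 74601760, was 110980 bp wide (26th), and the widest HoxB region, 96086140 to 96181620, was 95480 bp wide (54th). The next widest HoxB regions crossed the borders of the window: 96207210 to 96279470, 72260 bp wide (132nd), on the high side, and 96019500 to 96078320, 58820 bp wide (240th), on the low side.

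These regions stood out in width more than in height, the authors' highest signal in a region. The tallest region of each cluster was also its widest in HoxA (height 253), HoxC (290) and HoxD (207), ranked 240th, 185th and 499th of the list, while in HoxB the tallest was the region at the low border (237, 298th). The median height over the 27 Hox regions was 107, against 68.5 over the list. The share of a region's width above the cutoff was 43.7% for the main HoxA region, 47.5% for HoxD, 54.8% for the widest in HoxB and 57.3% for HoxC. The 10 small HoxA regions below the main one were from 1060 to 6910 bp wide and at most 109 high.

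RING1B covered a smaller part of each window and set the clusters in another order. Its covered share was 50.6% in HoxA (111 kb), 44.8% in HoxC (112 kb), 44.6% in HoxB (98.2 kb) and 28.2% in HoxD (42.3 kb), against 1.5% of the chromosomes as a whole. HoxB and HoxC again lay within 1 point of each other, and HoxA, lowest for H3K27me3, was highest for RING1B. HoxD was 22.4 points under HoxA. Of the 13196 tiles, whose median RING1B share was 0%, 8 reached the share of HoxA, 12 that of HoxC, 13 that of HoxB and 66 that of HoxD. The lead of HoxA depended on the borders. With windows widened by 20 kb on both sides, the shares were 43.9% in HoxA, 42.3% in HoxC, 37.8% in HoxB and 23.3% in HoxD. With windows narrowed by 20 kb they were 58.8% in HoxA and 45.3% in HoxC, the next highest. The lead was also smaller among strong peaks. With RING1B peaks of a -log10 q of at least 5 alone, the shares were 30.1% in HoxA, 29.2% in HoxB, 28.7% in HoxC and 19.8% in HoxD.

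The bars of covered share show H3K27me3 continuing beyond some windows at nearly the same level, and less RING1B outside every window than in it. In the 100 kb on each side, RING1B covered between 0% (high-coordinate side of HoxA) and 16.1% (low-coordinate side of HoxB). H3K27me3 covered 86.6% and 95.8% of the low and high flanks of HoxB, so the share of the high flank lay within 1 point of that of the window. Around HoxC it covered 87.0% of the low flank and 20.2% of the high flank, around HoxD 43.8% and 37.9%, and around HoxA 32.7% and 22.5%.

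**Figure D2:**
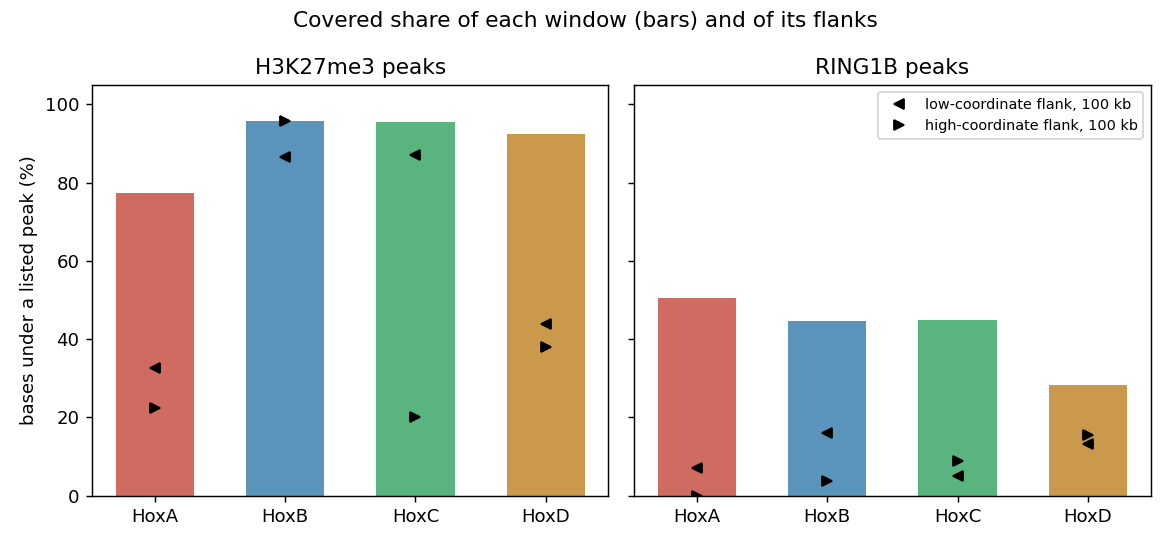
Bases under a listed peak, in percent, for H3K27me3 (left) and RING1B (right). Bars give the window of each cluster and triangles its low- and high-coordinate flanks of 100 kb; no RING1B flank is above 16.1%, while the H3K27me3 flanks of HoxB reach 86.6% and 95.8%.

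The number of RING1B peaks was much alike among the clusters, and so were their median folds, while their widths were not. There were 20 peaks in HoxA, 19 in HoxB, 19 in HoxC and 14 in HoxD, or 9.09, 8.64, 7.60 and 9.33 per 100 kb. HoxD, with the lowest covered share, thus had the most peaks per length. Its peaks were shorter: their median width was 1024 bp, against 1350.5 bp in HoxA, 1781 bp in HoxB and 1960 bp in HoxC. RING1B peaks wider than 10 kb numbered 3 in HoxA, 3 in HoxB, 4 in HoxC and 1 in HoxD, and they held 69.5%, 62.9%, 73.7% and 33.3% of the RING1B bases of their windows. In HoxC 1 peak crossed the low border with 70 bp inside the window, and no other RING1B peak crossed a border.

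The strongest RING1B peaks lay in HoxA. The peak at chromosome 6, 52192461 to 52231135, was 38675 bp wide with a fold enrichment of 10.2, 29th by fold and 20th by width of the 24987 peaks. A second HoxA peak, 52254547 to 52276876, was 22330 bp wide with a fold of 6.95, while the third wide one, 52166800 to 52183151, was 16352 bp wide with a fold of 3.50. No other cluster had a RING1B peak above a fold of 5.38.

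In HoxB the widest peak, 96030564 to 96070223, was 39660 bp wide (17th of the list) and had the cluster's highest fold, 4.93; the next widest, 96168201 to 96179347, had a width of 11147 bp and a fold of 3.71. In HoxC the widest, 102785698 to 102820049, had a width of 34352 bp and the highest fold there, also 4.93, and the next, 102821300 to 102844443, 23144 bp and 4.73. In HoxD the widest, 74497472 to 74511552, had 14081 bp and a fold of 4.98, and the next, 74522839 to 74532550, 9712 bp and the highest fold of the cluster, 5.38. The mean RING1B fold over covered bases was 6.54 in HoxA, 4.25 in HoxB, 4.23 in HoxC and 4.54 in HoxD. The median over peaks was close to that of the whole list in every cluster (3.15, 3.24, 3.09 and 3.18, against 3.22), so most Hox peaks had ordinary folds and the high values belonged to a few wide ones. Fold is the authors' value, and no comparison of it between clusters has an error.

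**Figure D3:**
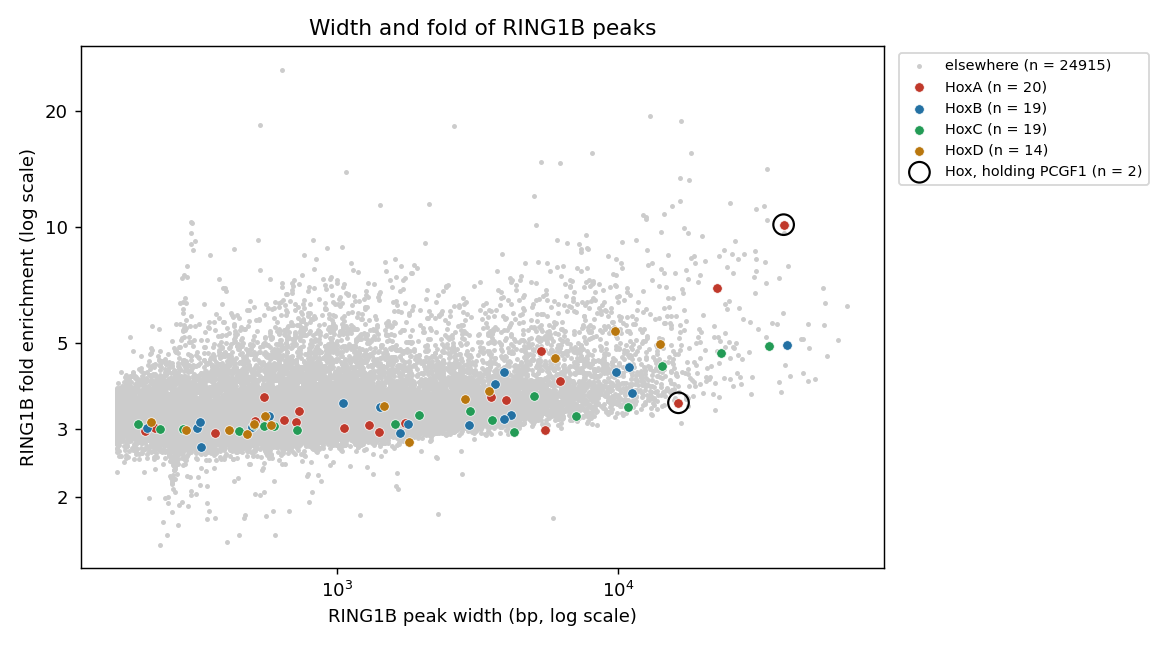
Width (bp) and fold enrichment of every RING1B peak, both on log scales; grey points lie outside the Hox windows, coloured points in them, and circles mark the 2 Hox peaks that hold PCGF1. Among the coloured points those above a fold of 5.38 are both in HoxA, at 6.95 and 10.2.

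RING1B in the Hox windows lay almost wholly inside H3K27me3, while much of the H3K27me3 lay outside RING1B. Of the 72 RING1B peaks 70 (97.2%, exact 95% binomial interval 90.3 to 99.7) were on H3K27me3, against 44.3% of all RING1B peaks. The 2 others were short HoxA peaks near its low border, 52080215 to 52081274 (fold 3.01) and 52096504 to 52096711 (fold 2.95). Since H3K27me3 covered most of each window, a high share holds for nearly any position there. By bases, 97.2% of RING1B in HoxA was under H3K27me3, where 77.3% of the window was. In HoxB it was 100% against 95.9% of the window, in HoxC 98% against 95.5%, and in HoxD 96.2% against 92.4%, so outside HoxA the shares were at most 5 points apart. The reverse share was 63.6% in HoxA, 46.6% in HoxB, 45.9% in HoxC and 29.4% in HoxD. H3K27me3 without RING1B thus made up 61.9 kb of HoxA, 113 kb of HoxB, 129 kb of HoxC and 97.9 kb of HoxD, and 46.8 kb of HoxA lay under neither, against 8.87 to 9.81 kb in the other 3 clusters. Of the 27 H3K27me3 regions 12 held a RING1B peak (44.4%, interval 25.5 to 64.7), against 5.57% of the list; wide regions have more room for a peak, and the regions were not matched on width.

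The longest stretch without RING1B differed in kind between the clusters. In HoxA it ran from 52105100 to 52161654, was 56.6 kb long, and only 38.2% of it was under H3K27me3. In HoxC it was 41.0 kb (102892849 to 102933836), and all of it was under H3K27me3. In HoxB it was 31.5 kb (96179348 to 96210816) with 82.3% under H3K27me3, and in HoxD 42.7 kb reaching the high border (74587339 to 74630000) with 77.8%. The map of the windows shows HoxA as a scattered low side followed by a dense block, and HoxC as a dense low side followed by H3K27me3 with few RING1B peaks.

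**Figure D4:**
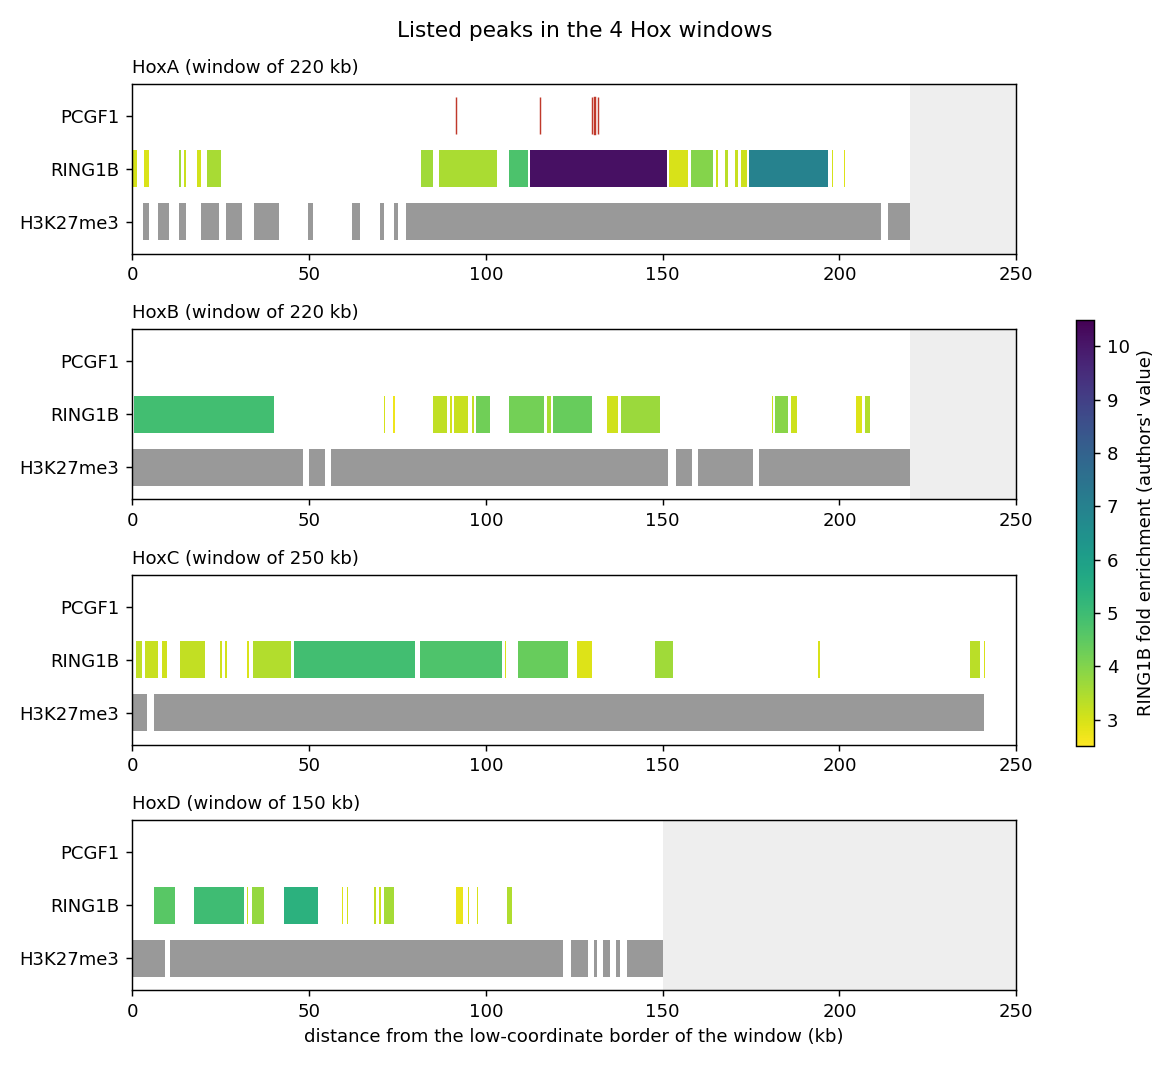
Positions of the listed peaks in each window, in kb from its low-coordinate border; grey bars are H3K27me3 regions, coloured bars RING1B peaks by fold, and red lines the 5 PCGF1 peaks, and shaded space lies beyond the window. PCGF1 appears in HoxA alone, and the darkest RING1B bar is the HoxA peak of fold 10.2.

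In each of these windows RING1B was denser on the side that holds the group 13 gene in the GRCm38.p6 order, a comparison made after the values were seen. Each window was split at its midpoint into 2 sides of equal length. The covered shares of the group 13 side and the other side were 71.7% and 29.5% in HoxA, 78.9% and 10.8% in HoxC, 51.2% and 5.29% in HoxD, and 51.5% and 37.8% in HoxB. The gaps were 42.3, 68.1, 45.9 and 13.7 points in that order. With the windows narrowed by 20 kb on both sides, the HoxB gap turned to -1.46 points, when part of its widest peak fell outside the window. H3K27me3 showed a wide gap in HoxA alone, 98.3% against 56.3%; it was 97.4% against 87.4% in HoxD, 98.3% against 92.8% in HoxC and 96.8% against 94.9% in HoxB. The midpoint of a window is not the midpoint of its genes, and gene order was not checked in mm9. In GRCm38.p6 the promoters read lay from 52164832 to 52261130 in HoxA and from 74667975 to 74762979 in HoxD. Both stretches are shorter than their windows, so part of a side can lie beyond the genes. The same can hold in HoxC, which had the widest gap. Only 1 promoter was read there, so no stretch of its genes is given. Whether the gaps set group 13 apart from other members, or genes apart from flank, was not tested.

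PCGF1 peaks were listed in HoxA alone, where there were 5, or 2.27 per 100 kb. In order along chromosome 6 they were 52171557 to 52171695 (139 bp, fold 4.36), 52195292 to 52195462 (171 bp, fold 4.41), 52209944 to 52210066 (123 bp, fold 4.67), 52210539 to 52210929 (391 bp, fold 4.91) and 52211750 to 52211852 (103 bp, fold 4.77). The last 3 lay within 1909 bp of each other, so the 5 peaks amount to 3 separate places, and together they covered 927 bp. Their -log10 q ran from 1.16 to 2.04, against a median of 1.97 over all PCGF1 peaks. Their median fold was 4.67 and their median width 139 bp, both under those of the whole list (4.79 and 224 bp). The first 2 peaks were among the weaker of the list, with a lower fold in 5.57% and 9.30% of it. The other 3 lay nearer its middle, with a lower fold in 35.9%, 62.6% and 47.8%. The fourth was above the list's median in fold, -log10 q and width, and the other 4 were below it in all of these. None reached a -log10 q of 5, so at that limit no cluster held PCGF1.

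All 5 PCGF1 peaks lay on RING1B and on H3K27me3 (5 of 5, interval 47.8 to 100%), against 75.3% of the PCGF1 list on RING1B and 50.4% on H3K27me3. Both shares of the list lie inside that interval, and the 5 peaks mark only 3 places. The first lay on the RING1B peak of fold 3.50, at 4.76 kb from its low border. The other 4 lay on the peak of fold 10.2: the first of them 2.83 kb from its low border and the cluster of 3 between 17.5 and 19.3 kb from it, near the middle of the peak. All 5 were inside the main HoxA region of H3K27me3, from 14 to 54.2 kb above its low border. The second strongest RING1B peak of HoxA, of fold 6.95, held none.

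No PCGF1 peak was listed in HoxB, HoxC or HoxD, although RING1B covered 253 kb there in all. A site absent from the list was not called, and this does not measure how much PCGF1 was bound. Near HoxC, 2 PCGF1 peaks lay 9.02 and 9.59 kb beyond the high border, 102999024 to 102999167 (fold 4.67) and 102999594 to 102999678 (fold 4.50), each on RING1B and H3K27me3. With windows widened by 20 kb they count as HoxC peaks. The nearest PCGF1 peak outside the window was 253 kb away in HoxB, 605 kb in HoxA and 774 kb in HoxD.

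Set against RING1B elsewhere, PCGF1 in the Hox clusters was not more frequent by number of RING1B peaks, and by length of RING1B the clusters differed. Of the 72 Hox RING1B peaks 2 held PCGF1 (2.78%, interval 0.338 to 9.68), against 5.85% of all RING1B peaks, which lies inside that interval. In HoxA it was 2 of 20, in HoxB 0 of 19, in HoxC 0 of 19 and in HoxD 0 of 14, and with intervals reaching 17.6% and 23.2% the last 3 do not show a share under that of the list. Among RING1B peaks wider than 10 kb, 2 of the 11 in Hox windows held PCGF1 (18.2%, interval 2.28 to 51.8), against 25.6% of all 464. Per 100 kb of RING1B, HoxA held 4.49 PCGF1 peaks and the 4 windows together 1.37, against 4.87 over the whole list. On RING1B peaks wider than 10 kb alone, the rate was 6.46 in HoxA and 2.12 in the 4 windows together, against 3.15 over all 464, so HoxA lay slightly below the list by one measure and above it by the other. Of the 27 H3K27me3 regions 1 held PCGF1 (3.70%, interval 0.0937 to 19.0), against 0.614% of the list, which lies inside that interval. That region was 134310 bp wide, against a list median of 1840 bp, and the regions were not matched on width.

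Against tiles of the chromosomes, the number of PCGF1 peaks per length was high in the HoxA window as placed. Many tiles with the RING1B share of HoxD or more held no PCGF1 peak, as HoxD did. A PCGF1 peak was present in 11.7% of the 13196 tiles. Among the 66 tiles with at least the RING1B share of HoxD, 47.0% held one and 35 held none. Tiles with that RING1B share and no listed PCGF1 peak, as in HoxD, were thus common. HoxB and HoxC lay above this limit, with RING1B shares reached by 13 and 12 tiles. PCGF1 was not counted among those tiles alone, so these values do not cover HoxB and HoxC. The tiles include the Hox clusters themselves, cut at other borders. By length, the list held 4.87 PCGF1 peaks per 100 kb of RING1B, while the 253 kb of RING1B in HoxB, HoxC and HoxD held none. On RING1B peaks wider than 10 kb alone the list's rate was lower, at 3.15. The number per 100 kb in HoxA was reached by 34 tiles of the whole set (0.258%), and by 1 of the 66 above, which held 5 peaks. This rank depends on borders, since the window was set around the cluster and the tiles were not. The tiles divided the 5 HoxA peaks between neighbours, so no tile of HoxA itself reached that number. By covered bases the rank of HoxA was lower: its PCGF1 share, 0.421%, was reached by 413 tiles, or 3.13%. The 5 HoxA peaks mark only 3 places, and peaks were not joined for these ranks.

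**Figure D5:**
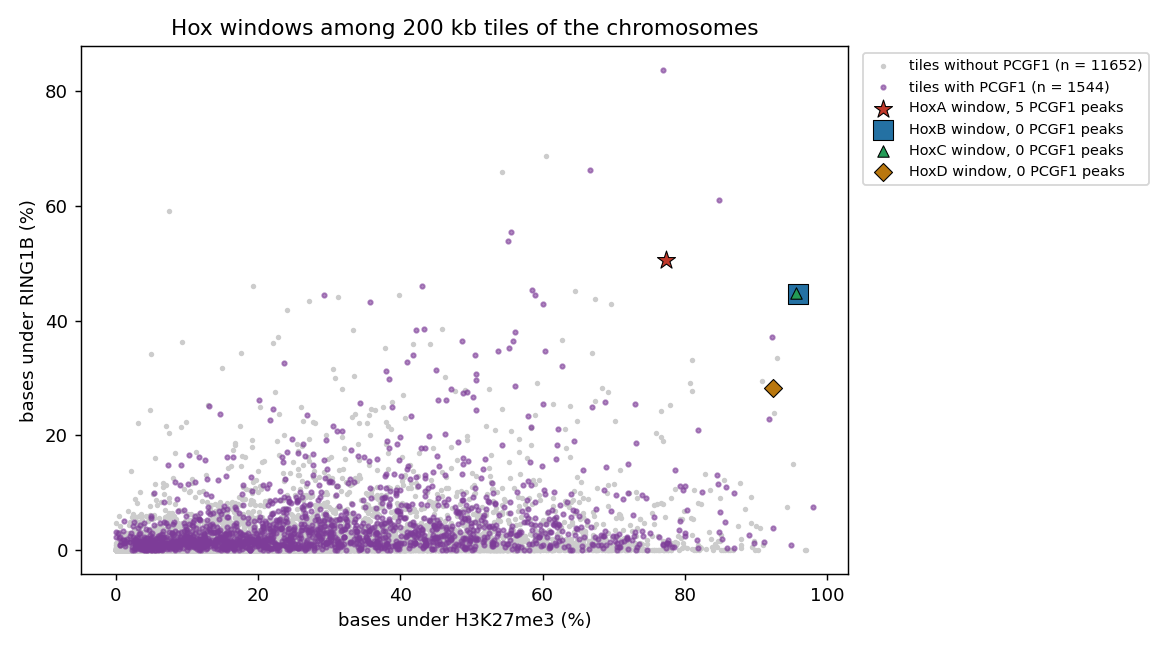
Share of bases under H3K27me3 and under RING1B, in percent, for each of the 13196 tiles of 200 kb (grey without PCGF1, purple with a PCGF1 peak) and for the 4 Hox windows (large marks, HoxB and HoxC lying on top of each other). The windows lie at 77.3 to 95.9% H3K27me3 and 28.2 to 50.6% RING1B, with 5 PCGF1 peaks in HoxA and 0 in the others.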

How the data were processed

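The data were 3 deposited peak lists of chromatin immunoprecipitation sequencing in IdHP cells, each for a pair of libraries. Bowtie2, SAMtools 1.6.0 and Picard, and the builds mm9 and dm3, are named per the submitters' processing notes, with no role given; all positions are taken to be mm9. Which caller, threshold and control were used, and whether libraries were pooled, is not given in the sources used here. The deposited PCGF1 and RING1B lists follow the broadPeak layout: a fold enrichment (a ratio), a -log10 q, and a score, 10 times the -log10 q rounded down, which was not used. Per the file headers, the deposited H3K27me3 list holds for each region its highest signal (height), how much of its width passed the cutoff, and the log p of the height, taken as -log10 p. Per-peak values are the authors' and were used only within a list.

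Members and comparisons were chosen with earlier results of these data known. Peaks sharing at least 1 bp with a window were counted, covered bases were clipped at its borders, and overlap meant at least 1 bp. Every PCGF1 peak, the 2 widest RING1B peaks, the highest fold and the widest and tallest H3K27me3 region of each cluster were named, besides peaks named for a stated feature. PCGF1 and RING1B positions count from 1, and H3K27me3 positions stand as listed. Shares of peaks have exact 95% Clopper-Pearson intervals, which cover counting error only; neighbouring peaks are not independent. Promoters came from RefSeq (GRCm38.p6), matched by gene symbol, and only the 250 bases before the start were read. Interval functions were tested on simulated data against per-base masks. Python 3.11.15, NumPy 2.4.6, pandas 2.3.3 and SciPy 1.17.1 were used. Alternatives were windows widened or narrowed by 20 kb, the stronger 50% of a list, a -log10 q of at least 5, peaks within 1 kb joined or counted as overlapping, and 50% of a PCGF1 peak covered.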

Additional observations from a re-analysis of the deposited data

How the results depend on the processing

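Of 48 recomputed values of the main comparisons, 39 stayed close to the value reported, 8 moved and 1 turned. The 48 include the gaps between the sides of a window, a comparison added after seeing the data. They also include shares of the 5 PCGF1 peaks, which counted as close anywhere from 47.8 to 100% and so could hardly move. The count is therefore no measure of how stable the results are. A covered share counted as close within the exact binomial interval over the kb of its window, and a count within 1.5 times. For a gap between shares, the distances to the limits of both intervals were combined as the root of their summed squares. Neighbouring kb under the same peak are not independent, so these limits only label a change and measure no error. For PCGF1, the difference between HoxA and the clusters without a peak, 2.27 per 100 kb, was 0.455 with the stronger 50% of the list, 1.36 with peaks within 1 kb joined and 0 with a -log10 q of at least 5. The gap in RING1B share between HoxA and HoxD, 22.4 points, was 10.3 points with a -log10 q of at least 5, and HoxA and HoxD kept the highest and the lowest share in every setting run. For H3K27me3, HoxA had the lowest share in every setting run, but HoxC (100%) and HoxD (96.8%) passed HoxB (95.0%) with narrowed windows. The gap between the sides of a window, a comparison added with its alternatives after seeing the data, turned for RING1B in HoxB to -1.46 points with narrowed windows. For RING1B it moved to 56.9 points in HoxA with narrowed windows, and in HoxC to 57.2 points with widened windows and 57.4 points with a -log10 q of at least 5. For H3K27me3 in HoxA it moved to 29.7 points with widened windows. The cause of these changes was not tested beyond the peaks each setting leaves out. Of 72 recomputed values of single clusters, 17 moved. No paired analysis was possible because no list holds values of single libraries, and leaving out a library could not be run for the same reason. Depth is unknown, so a cluster without a listed PCGF1 peak may hold sites under the threshold.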
